A study of Mus musculus with 2 samples.

Results

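The T cell receptor and CD3 chains were followed here through single cells of the popliteal lymph nodes (PLNs) that drain the arthritic ankle of TNF transgenic (TNF-Tg) mice. The members were 10 of the 32285 genes in the count matrices, taken by name: the CD3 and zeta chain genes Cd3d, Cd3e, Cd3g and Cd247, the alpha beta constant genes Trac, Trbc1 and Trbc2, and the gamma delta constant genes Trdc, Tcrg-C1 and Tcrg-C2. All were found, and none was chosen for its level in these cells. The Advanced library came from TNF-Tg mice older than 8 months, and the Early library from TNF-Tg mice of 5 to 6 months. Both were of male mice on a C57BL/6 background that carry a TNF transgene, and each pooled 6 PLNs of 3 mice, found with Evans blue dye and sorted for live nucleated cells before droplet 3′ sequencing. With 1 library per stage, arthritis stage, age, library and the pooled mice are the same split and cannot be told apart, and no difference between stages could be tested. Every interval given covers counting error alone, at 95% (exact Poisson for levels, exact conditional for ratios and Clopper-Pearson for shares), and PCR copies were already collapsed to unique molecular identifiers (UMIs) by the authors. Levels are UMI counts per 1000000 UMIs (CPM) summed over a class of cells. One UMI stands for 1 captured 3′ end, so no length correction was made between genes.

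A T cell recognises antigen through a clonal pair of variable chains, either alpha with beta or gamma with delta, joined to constant regions. These pairs cannot signal on their own. They sit in the membrane with the CD3 gamma, delta and epsilon chains and the zeta chain, whose tails carry the phosphorylation motifs that start signalling. The genes are assembled in the thymus, where Rag1 and Rag2 cut the segments and Dntt adds bases at the joints. The beta, gamma and delta loci rearrange in immature cells that lack CD4 and CD8. A beta chain then pairs with the invariant pre-T alpha chain, encoded by Ptcra, before the alpha locus rearranges in cells with both co-receptors. The mouse beta locus holds a pair of constant genes, Trbc1 and Trbc2, each behind its own joining segments, and a rearranged locus uses one of them.

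The CD3 genes lie side by side on chromosome 9 (GRCm38, GENCODE M21): Cd3g at chr9:44969572-44980431 on the minus strand, Cd3d at chr9:44981786-44987339 on the plus strand and Cd3e at chr9:44998740-45009627 on the minus strand. The Cd3g and Cd3d start sites are 1355 bases apart and face away from each other. Cd247, which encodes the zeta chain, is alone on chromosome 1 (chr1:165788681-165877277, plus strand). Trdc (chr14:54142851-54148868) lies 71653 bases upstream of Trac (chr14:54220521-54224206), inside the same locus, and rearrangement of the alpha chain deletes the delta genes. Trbc1 (chr6:41538218-41539881) ends 6849 bases before Trbc2 begins (chr6:41546730-41548352), and all 4 of these genes are on the plus strand. Tcrg-C1 (chr13:19214103-19217024, plus strand) and Tcrg-C2 (chr13:19304649-19307551, minus strand) are inverted copies whose ends are 87625 bases apart.

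The paired constant genes are near copies, so a read inside the copied part cannot always be given to one of them. Trbc1 and Trbc2 were identical at 495 of 518 coding bases (95.6%), and 22 of the 23 differing bases fall in the last 150 coding bases. That stretch of each GENCODE transcript follows with the differing bases in capitals, because most of the coding differences lie in it. It covers coding bases 369 to 518, joined across introns within chr6:41538586-41539662 and chr6:41547098-41548178.
Trbc1: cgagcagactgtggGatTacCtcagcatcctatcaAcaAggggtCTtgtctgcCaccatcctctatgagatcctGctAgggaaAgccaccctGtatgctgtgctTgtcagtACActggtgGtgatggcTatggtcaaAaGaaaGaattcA
Trbc2: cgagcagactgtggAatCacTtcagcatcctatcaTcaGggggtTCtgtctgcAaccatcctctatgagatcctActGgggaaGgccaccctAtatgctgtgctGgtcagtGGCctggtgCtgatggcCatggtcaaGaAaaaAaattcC
The 3′ untranslated regions of the Trbc pair were 55.1% identical, and none of the 251 windows of 50 bases in the last 300 bases of Trbc1 was shared with Trbc2. For 3′ tags that fall there, the Trbc pair is therefore separable, whereas tags inside the coding sequence are uncertain.

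The gamma pair is harder to separate. Tcrg-C1 and Tcrg-C2 were 94.6% identical over their aligned coding bases and 93.5% identical over their 3′ untranslated regions, and 55 of 251 windows of 50 bases at the 3′ end (21.9%) were shared. Their split is therefore uncertain, and their sum with Trdc is used below for gamma delta use. The stretch that holds the main difference is printed with capitals for bases that differ or have no partner in the alignment (coding bases 270 to 408 within chr13:19214372-19216508 and 270 to 393 within chr13:19305170-19307282). Tcrg-C1 is 15 bases longer there, and the alignment split these bases into several runs. The capitals therefore do not mark a continuous insertion, and the letters GTTGCT, in capitals in Tcrg-C1, also stand in Tcrg-C2.
Tcrg-C1: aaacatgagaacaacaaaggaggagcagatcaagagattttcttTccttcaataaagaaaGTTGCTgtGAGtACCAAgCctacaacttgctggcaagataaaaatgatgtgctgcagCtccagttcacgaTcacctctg
Tcrg-C2: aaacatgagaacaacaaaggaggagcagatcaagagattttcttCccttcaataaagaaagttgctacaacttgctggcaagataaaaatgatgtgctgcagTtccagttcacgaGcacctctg

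The 3 CD3 genes and Cd247 had promoters in RefSeq (GRCm38.p6, from 250 bases before to 50 after the start), and the constant genes had none there. The letters CAGGTG, the E-box bound by E proteins such as those encoded by Tcf3 and Tcf12, were found in all 4 on one strand or the other (CACCTG where on the opposite strand), against 20.2% of 32851 mouse promoters of that length. The ETS motif ACAGGAAG was found in Cd3e alone (3.58% of promoters). The RUNX motif TGTGGT (16.8% of promoters) and the TCF motif TTCAAAG (5.14%) had no match in these 4 windows. The divergent pair is shown with the E-box letters in capitals, on each gene's own strand (chr9:44980382-44980681 for Cd3g and chr9:44981536-44981835 for Cd3d). A match is a description of the letters and not a bound site.
Cd3g: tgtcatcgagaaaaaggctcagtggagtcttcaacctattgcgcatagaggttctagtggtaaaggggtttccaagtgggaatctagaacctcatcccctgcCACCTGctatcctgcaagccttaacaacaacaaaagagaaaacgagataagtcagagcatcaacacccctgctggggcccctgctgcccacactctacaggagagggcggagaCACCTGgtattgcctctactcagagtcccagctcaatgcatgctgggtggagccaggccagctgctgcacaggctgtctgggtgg
Cd3d: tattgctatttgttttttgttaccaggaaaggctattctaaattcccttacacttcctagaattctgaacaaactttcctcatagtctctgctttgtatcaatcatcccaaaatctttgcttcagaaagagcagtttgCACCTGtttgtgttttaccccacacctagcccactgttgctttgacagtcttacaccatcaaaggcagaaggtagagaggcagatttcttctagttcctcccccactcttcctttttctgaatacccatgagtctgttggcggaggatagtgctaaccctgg

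The Advanced library held 83148059 UMIs over 8183 cells kept, with a median of 7837 UMIs per cell, and the Early library held 67610110 UMIs over 8221 cells, with a median of 6643. The libraries shared 20 cell barcodes. T-cell-like cells numbered 1287 in Advanced (15.7%) and 166 in Early (2.02%). They were named from a pooled list of T cell, NK cell and T subset markers. The markers found among the leading genes of their clusters were genes such as Cd8b1, Foxp3 and Cxcr6. The members, every receptor segment and the immunoglobulin genes were kept out of the clustering. The class held 11 sub-clusters together with the thymocyte-like cells. One cluster held most of the Advanced T-cell-like cells (731 of 1287) and another most of the Early ones (103 of 166), so the classes differ in make-up between stages. One sub-cluster led by B cell genes (Ebf1, Cd74, Cd79a) held 98 Advanced and 3 Early cells, and 88.1% of these were among the cells with the highest doublet scores. Cd79a had a UMI in 56.1% of Advanced and 47.0% of Early T-cell-like cells. Its part in the levels below was not tested beyond leaving out that sub-cluster.

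**Figure D1:**
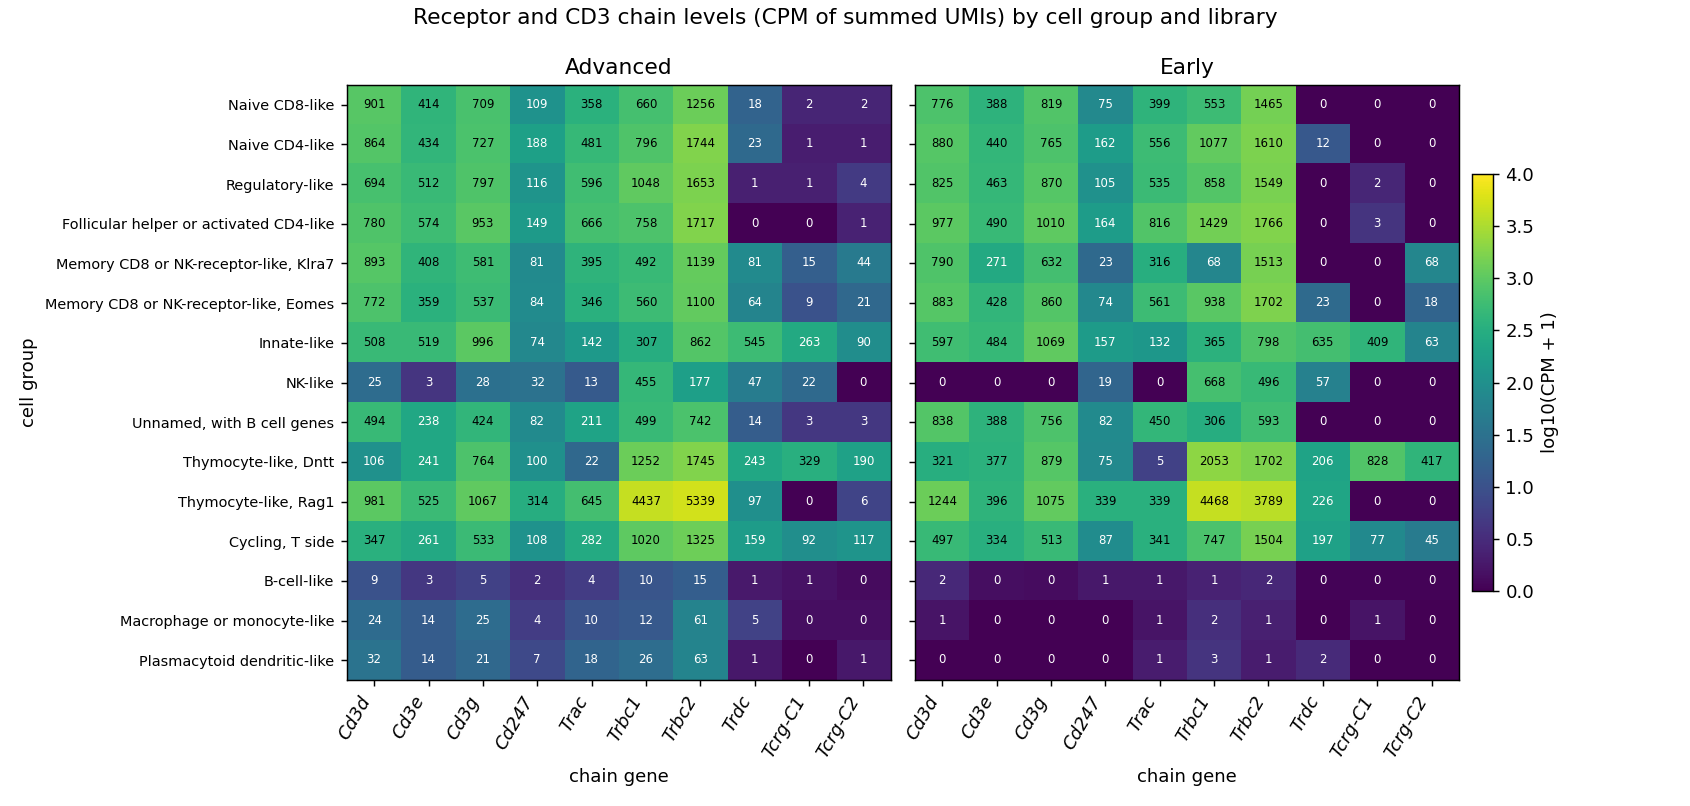
Level of each of the 10 chain genes (columns) in 15 cell groups (rows) of the Advanced (left) and Early (right) libraries, printed as CPM of summed UMIs and coloured by log10(CPM + 1). The CD3 and alpha beta genes fill the rows of the T subsets, apart from low CD3 and Trac in the NK-like cells and low Trac in the Dntt thymocyte-like cells, the gamma delta genes are high in the Innate-like and the Dntt thymocyte-like rows, and the B and myeloid rows are dark, more so in Early.

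The CD3 chains were abundant in T-cell-like cells of both stages, at 1944 CPM in Advanced and 2219 CPM in Early (ratio 0.876, 0.848 to 0.906). A CD3 UMI was found in 98.1% of Advanced and 97.0% of Early T-cell-like cells, with a median of 23 per cell in Advanced and 20.5 in Early. Cd3d, the delta chain gene, was at 775 CPM in Advanced and 811 CPM in Early (0.956, 0.905 to 1.01). Cd3e, the epsilon chain gene, was at 402 CPM in Advanced and 433 CPM in Early (0.928, 0.861 to 1.00). On plain totals neither ratio differed from 1 beyond counting error. When the library totals were scaled by TMM both lay above 1 beyond counting error, at 1.13 (1.07 to 1.19) for Cd3d and 1.10 (1.02 to 1.18) for Cd3e. Cd3g, the gamma chain gene, was at 659 CPM in Advanced and 865 CPM in Early (0.762, 0.722 to 0.804), and stayed below 1 under TMM (0.8996). Cd247, the zeta chain gene, was at 108 CPM in Advanced and 110 CPM in Early (0.987, 0.851 to 1.15), against 1.17 (1.005 to 1.36) under TMM. The median ratio over all 7332 genes with at least 10 CPM in T-cell-like cells was itself 0.863. Relative to that shift, Cd3g lay below the median, while Cd3d, Cd3e and Cd247 lay above it. The summed CD3 ratio lay close to the median and turned to 1.03 under TMM.

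The mix of CD3 genes differed between subsets. Cd3g took 33.9% of CD3 UMIs in Advanced and 39.0% in Early T-cell-like cells, and Cd3d took 39.9% in Advanced and 36.6% in Early. In the Innate-like sub-cluster, led by Tmem176a, Tmem176b, Cd163l1 and Cxcr6, there were 1.96 Cd3g UMIs per Cd3d UMI in Advanced and 1.79 in Early, against 0.850 and 1.07 over all T-cell-like cells of the same stages. The Dntt thymocyte-like sub-cluster had the most uneven mix, with 7.24 Cd3g UMIs per Cd3d UMI in Advanced and 2.73 in Early. The Rag1 thymocyte-like sub-cluster had 1.09 in Advanced and 0.864 in Early. In Innate-like cells Cd3g was at 996 CPM in Advanced and 1069 CPM in Early, above the T-cell-like level of its stage, and Cd3d was at 508 and 597 CPM, below it. The Dntt sub-cluster held only 44 Advanced and 7 Early cells.

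The alpha beta chains were the main receptor of the T-cell-like cells. Summed Trac, Trbc1 and Trbc2 were at 2282 CPM in Advanced and 2839 CPM in Early (0.804, 0.781 to 0.828), with a median of 25 UMIs per cell in Advanced and 22 in Early. Trac, the alpha constant gene, was at 382 CPM in Advanced and 511 CPM in Early (0.747, 0.697 to 0.801). Trbc1 was at 654 CPM in Advanced and 854 CPM in Early (0.766, 0.726 to 0.808), and Trbc2 at 1247 CPM in Advanced and 1474 CPM in Early (0.846, 0.812 to 0.881). Under TMM the ratios of Trac and Trbc1 were 0.882 and 0.904, still below 1, whereas that of Trbc2 was 0.999 (0.959 to 1.04), no longer apart from 1. The alpha beta sum was a little below the all-gene median of 0.863. Of the 10 members, 9 were below 1 and 1 above, with a median of 0.813, and none was over 2-fold higher in Advanced, where 0.764% of all genes were. A single member, Tcrg-C1, was over 2-fold lower, where 3.53% of all genes were (4.3% in either direction). The split of Tcrg-C1 from Tcrg-C2, whose ratio was 1.31 (0.799 to 2.30), is uncertain, so that call is too.

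The pooled alpha beta ratio was not the ratio of each subset. In Regulatory-like cells (209 Advanced, 64 Early), which lead with Foxp3 and Ctla4, the chains were at 3297 CPM in Advanced and 2942 CPM in Early (1.12, 1.06 to 1.18). In Naive CD8-like cells (395 and 24) they were at 2273 CPM in Advanced and 2417 CPM in Early (0.941, 0.870 to 1.02), and in Naive CD4-like cells (195 and 13) at 3021 and 3243 CPM (0.931, 0.826 to 1.05). On plain totals the naive subsets therefore did not differ between stages beyond counting error, and Regulatory-like cells were higher in Advanced. The other ways of setting the totals moved the pooled ratio to 0.914 and 0.949 and were not run by subset. The Follicular helper or activated CD4-like cells (63 and 25) were lower in Advanced, at 3141 CPM against 4011 CPM in Early (0.783, 0.731 to 0.839). Memory CD8 or NK-receptor-like cells formed a sub-cluster with Klra7 among its leading genes (135 and 5 cells) and another with Eomes (117 and 16 cells). The Klra7 cells were at 2026 CPM in Advanced and 1897 CPM in Early, while the Eomes cells were at 2007 CPM in Advanced and 3202 CPM in Early (0.627, 0.578 to 0.681). Over both stages, 35.2% of the Follicular helper or activated CD4-like and 24.1% of the Eomes cells were among the highest doublet scores. The share was 1.91% in Naive CD8-like and 2.93% in Regulatory-like cells. Lyz2, a myeloid gene, was the top gene of the Eomes cells. The part of doublets in these ratios was not tested by subset. Naive CD8-like cells, among the lower subsets in level, made up 395 of 1287 Advanced and 24 of 166 Early T-cell-like cells, and Regulatory-like cells, among the higher ones, 209 and 64.

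Ordered by alpha beta level, the Rag1 thymocyte-like sub-cluster stood highest in both stages, at 10420 CPM (9948 to 10910) in Advanced and 8596 CPM (7284 to 10077) in Early. In Advanced, Regulatory-like (3297), Follicular helper or activated CD4-like (3141), Naive CD4-like (3021) and Dntt thymocyte-like cells (3019) followed, and neighbours in that order had overlapping counting intervals. The cycling cells of the T side came next at 2627 CPM, then Naive CD8-like cells. The Klra7 and Eomes sub-clusters overlapped each other, and the Innate-like (1311 CPM) and NK-like cells (645 CPM) were lowest. In Early, the Innate-like (1295 CPM) and NK-like cells (1165 CPM) were again lowest, with overlapping intervals between them. CD3 levels gave a different bottom to the order. Innate-like cells were at 2097 CPM of CD3 in Advanced and 2307 CPM in Early, within the range of the other T subsets, whereas the NK-like cells were at 88.5 CPM in Advanced and 19.1 CPM in Early.

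NK-like cells, with Ncr1, Klrb1c and Gzma among their leading genes, had many beta chain UMIs beside few of the other chains. In the 25 Advanced and 4 Early NK-like cells, Trbc1 was at 455 CPM in Advanced and 668 CPM in Early, and Trbc2 at 177 and 496 CPM. Trac was at 12.6 CPM in Advanced and had no UMI in Early, and Cd3e was at 3.16 CPM in Advanced and had none in Early. Cd247, Cd3g and Cd3d had 10, 9 and 8 UMIs in Advanced, of which Cd247 was at 31.6 CPM against 108 CPM in all T-cell-like cells, and Early had 1 Cd247 UMI and none of Cd3g or Cd3d. Gamma delta chains had 22 UMIs in Advanced (9.73% of receptor UMIs) and 3 in Early (4.69%), and 6 of 25 Advanced and 1 of 4 Early cells held 2 or more. A Trbc1 UMI was present in 23 of 25 Advanced and 4 of 4 Early NK-like cells. Trbc1 took 72.0% of their Trbc UMIs in Advanced (65.2 to 78.1) and 57.4% in Early (44.1 to 70.0), the largest Trbc1 share of any named sub-cluster in each stage, though in Early its interval took in the 54.6% of the thymocyte-like cells. Leaving these cells out of the T-cell-like class gave an alpha beta ratio of 0.802.

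The gamma delta chains made up 3.13% of receptor UMIs in Advanced and 3.65% in Early T-cell-like cells. Their summed level was 73.7 CPM in Advanced and 108 CPM in Early (0.685, 0.588 to 0.802), and most cells had none, with a UMI in 14.5% of Advanced and 12.7% of Early cells and up to 78 and 61 in one cell. Trdc, the delta constant gene, was at 47.6 CPM in Advanced and 61.0 CPM in Early (0.780, 0.637 to 0.961). Tcrg-C1 was at 13.7 CPM in Advanced and 37.2 CPM in Early (0.370, 0.280 to 0.494), and stayed lower under TMM (0.437). Tcrg-C2 was at 12.4 CPM in Advanced and 9.43 CPM in Early (1.31, 0.799 to 2.30), not apart from 1 beyond counting error. These sums rest on few cells, and without the single cell of each library with the most gamma delta UMIs the summed ratio was 0.920 (0.768 to 1.11), no longer apart from 1.

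T-cell-like cells held 36.7% of all gamma delta UMIs in Advanced and 19.4% in Early. Thymocyte-like cells held 26.7% and 29.3%, and cycling cells 32.2% and 49.2%. Within the T-cell-like class, the gamma delta level was highest in the Innate-like sub-cluster, of 50 Advanced and 12 Early cells. There the chains were at 899 CPM in Advanced and 1107 CPM in Early (0.812, 0.682 to 0.970) and took 40.7% of receptor UMIs in Advanced and 46.1% in Early. The top gamma delta cell of each library was in this sub-cluster, where Trdc reached 64 UMIs in an Advanced and 43 in an Early cell. The ratio was not recomputed here without those cells. Trdc was at 545 CPM in Advanced and 635 CPM in Early, Tcrg-C1 at 263 and 409 CPM (0.644), and Tcrg-C2 at 90.2 and 62.9 CPM. The fourth gamma constant gene, Tcrg-C4, was at 109 CPM in Advanced and 44.0 CPM in Early. The Klra7 sub-cluster carried 141 CPM of gamma delta chains in Advanced and 67.7 CPM in 5 Early cells, and the Eomes sub-cluster 94.2 CPM in Advanced and 41.4 CPM in Early (2.28). That last ratio rests on few cells. Of the Eomes cells, 14 of 117 Advanced and 2 of 16 Early held 2 or more gamma delta UMIs. Naive CD8-like cells held 107 gamma delta UMIs in Advanced (21.0 CPM) and none in their 24 Early cells. Regulatory-like cells had almost none in either stage (0.189% of receptor UMIs in Advanced and 0.0584% in Early).

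At the level of single cells, a receptor type was counted as present with 2 or more UMIs. Of T-cell-like cells, 1175 of 1287 in Advanced (91.3%, 89.6 to 92.8) and 151 of 166 in Early (91.0%, 85.5 to 94.9) held alpha beta chains only. Both types were held by 105 Advanced (8.16%, 6.72 to 9.79) and 14 Early cells (8.43%, 4.69 to 13.7), and gamma delta chains only by 2 Advanced (0.155%) and 1 Early (0.602%). The shares in the stages overlapped within counting error. Another 80 Advanced and 6 Early cells had exactly 1 gamma delta UMI, and 23 and 3 had exactly 2, at the edge of the count used.

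**Figure D2:**
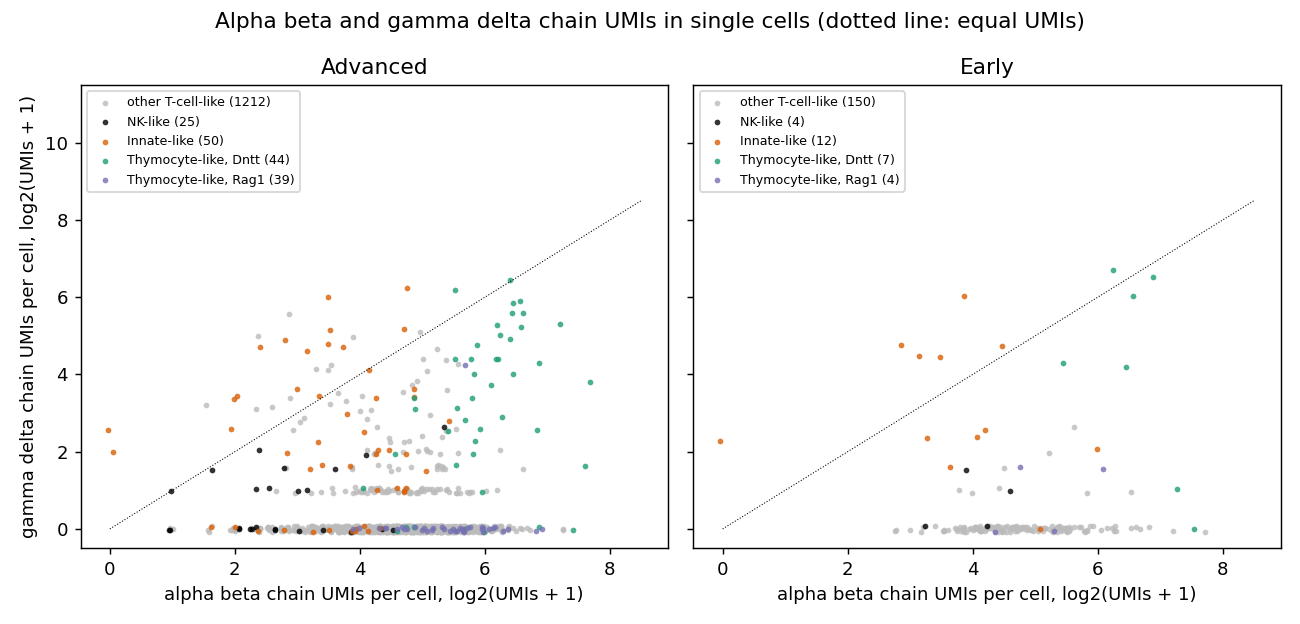
Alpha beta chain UMIs (x) against gamma delta chain UMIs (y) in single T-cell-like and thymocyte-like cells of the Advanced (left) and Early (right) libraries, both as log2(UMIs + 1) with a small offset added so that equal points can be seen. Each point is a cell, colours mark sub-clusters with their cell numbers, and points above the dotted line have more gamma delta than alpha beta UMIs. The cells along the bottom are the alpha beta cells, and Innate-like cells form most of the cloud above the line.

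Cells with gamma delta chains nearly always held alpha beta chain UMIs as well. Of the 107 Advanced and 15 Early T-cell-like cells with 2 or more gamma delta UMIs, 46 and 7 held both a delta and a gamma constant gene, 23 and 2 delta only, and 38 and 6 gamma only. There was no Trac UMI in 43 of the 107 Advanced and 6 of the 15 Early cells, and gamma delta UMIs outnumbered alpha beta UMIs in 27 and 6. With the alpha beta type read from Trac alone, cells with gamma delta chains only numbered 55 in Advanced (4.27%, 3.24 to 5.53) and 10 in Early (6.02%, 2.93 to 10.8). On that reading 213 Advanced (16.6%) and 15 Early cells (9.04%) held neither type, against 5 and 0 with the alpha beta sum, so cells with few Trac UMIs are missed. Of the cells with gamma delta chains only, 23 Advanced and 8 Early were Innate-like, or 46% of 50 and 66.7% of 12 cells. The Innate-like cells had 0.121 Trac UMIs per Trbc UMI in Advanced and 0.114 in Early, against 0.201 and 0.220 over all T-cell-like cells. Outside the Innate-like cells, both types met in 29 of 135 Advanced Klra7 cells (21.5%), 14 of 117 Advanced Eomes cells, 15 of 395 Advanced Naive CD8-like cells and 2 of 209 Advanced Regulatory-like cells. Among Follicular helper or activated CD4-like cells none of 63 Advanced and none of 25 Early cells held both. The Early counts were 1 of 5 in the Klra7, 2 of 16 in the Eomes and none of 24 in the Naive CD8-like sub-cluster.

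Trbc2 was used more than Trbc1 in the T-cell-like cells of both stages. Trbc1 took 34.4% of Trbc UMIs in Advanced (33.8 to 34.9) and 36.7% in Early (35.2 to 38.1). With each cell given equal weight the shares were 30.1% in Advanced and 29.1% in Early, so the order of the stages depended on the weighting. Both genes reached 2 UMIs in 717 of 1272 Advanced cells (56.4%, 53.6 to 59.1) and 101 of 165 Early cells (61.2%, 53.3 to 68.7), with overlapping intervals. Trbc1 alone did so in 38 Advanced (2.99%) and 3 Early cells, and Trbc2 alone in 517 (40.6%) and 61 (37.0%). The split was therefore lopsided, since 437 Advanced cells (34.4%) and 55 Early cells (33.3%) had no Trbc1 UMI at all but only 18 (1.42%) and 2 (1.21%) had no Trbc2 UMI.

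**Figure D3:**
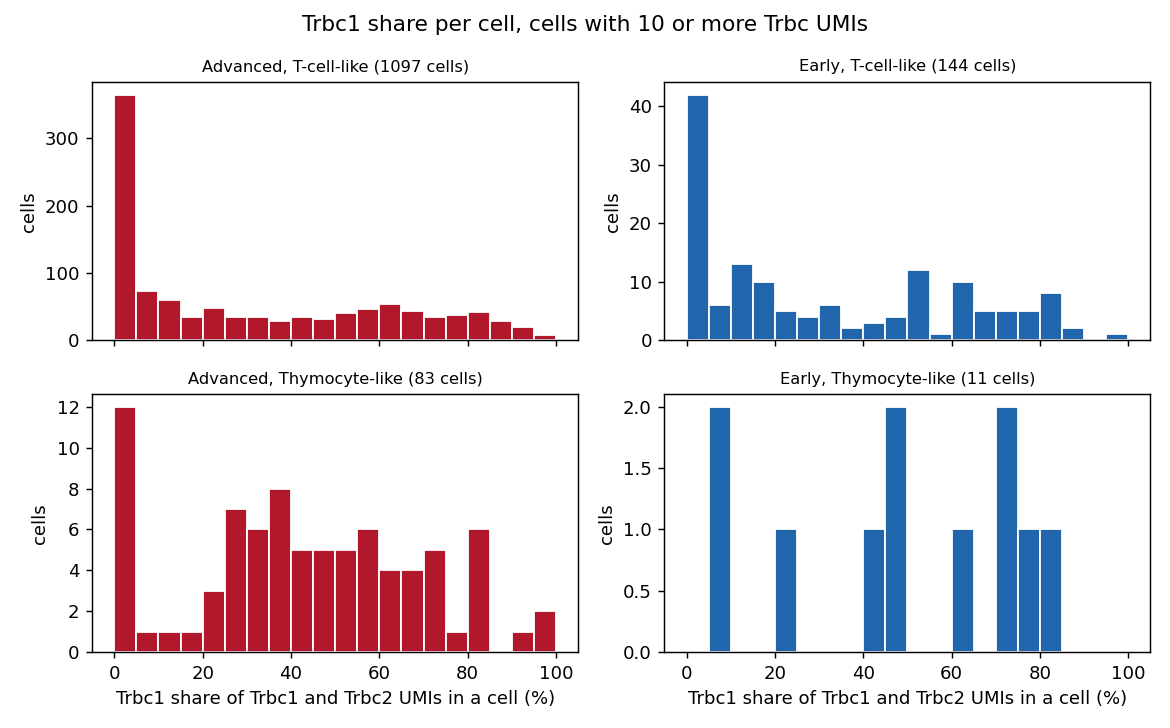
Number of cells (y) by the share of a cell's Trbc UMIs that came from Trbc1 (x, percent), for T-cell-like and thymocyte-like cells with 10 or more Trbc UMIs in the Advanced (left) and Early (right) libraries. T-cell-like cells number 1097 in Advanced and 144 in Early, with a peak near 0, a low spread over the higher shares and few cells above 90% in both.

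Among the 1097 Advanced T-cell-like cells with 10 or more Trbc UMIs, 438 had a Trbc1 share under 10%, 307 a share of 10 to 50%, 326 one of 50 to 90% and 26 one above 90%. Among the 144 Early cells the numbers were 48, 47, 48 and 1. The median share was 20.7% in Advanced and 20.1% in Early. Cells near 0 were thus common, and cells near 100% were rare, in each stage. By subset, Trbc1 took 38.8% of Trbc UMIs in Advanced and 35.6% in Early Regulatory-like cells, 34.4% and 27.4% in Naive CD8-like cells, 31.3% and 40.1% in Naive CD4-like cells, and 30.6% and 44.7% in Follicular helper or activated CD4-like cells. In the Follicular helper or activated CD4-like cells Trbc1 itself was at 758 CPM in Advanced and 1429 CPM in Early (0.531), while Trbc2 was at 1717 and 1766 CPM. The Innate-like cells had 26.3% in Advanced and 31.4% in Early. The 5 Early Klra7 cells had 4.29%, against 30.1% in 135 Advanced cells. The direction between stages was not the same across subsets.

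The thymocyte-like cells, 83 in Advanced and 11 in Early, fell into a sub-cluster led by Dntt (44 and 7 cells), in which the haemoglobin gene Hbb-bt was the top gene, and one led by Rag1 (39 and 4 cells). The Dntt cells had a median depth of 21488.5 UMIs in Advanced and 31216 in Early, and the Rag1 cells 3872 and 4408, so UMIs per cell cannot be set side by side between them. Neither Cd4 nor Cd8 had a UMI in 38 of 44 Advanced and 5 of 7 Early Dntt cells. Both co-receptors had one in 30 of 39 Advanced and 3 of 4 Early Rag1 cells. Those are the states that the textbook order places before and at rearrangement of the alpha chain.

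In the Dntt cells the beta genes were high and the alpha gene was low. Trbc1 was at 1252 CPM in Advanced and 2053 CPM in Early, and Trbc2 at 1745 and 1702 CPM, while Trac was at 21.7 CPM in Advanced and 5.02 CPM in Early. That is 0.00723 Trac UMIs per Trbc UMI in Advanced and 0.00134 in Early. The 38 Advanced Dntt cells without Cd4 and Cd8 held 7 Trac UMIs beside 1053 of Trbc1 and 1455 of Trbc2, and 1 cell with Cd4 held 16 more Trac UMIs. Gamma delta chains took 20.2% of receptor UMIs in Advanced and 27.8% in Early Dntt cells, at 762 CPM in Advanced and 1451 CPM in Early (0.525). Both receptor types reached 2 UMIs in 35 of 44 Advanced Dntt cells (79.5%) and 5 of 7 Early ones. Ptcra, the pre-T alpha gene, was at 81.0 CPM in Advanced and 80.3 CPM in Early, and Dntt itself at 868 and 999 CPM. Cd3d was at 106 CPM in Advanced and 321 CPM in Early there, and Cd3g at 764 and 879 CPM.

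In the Rag1 cells, Trac was at 645 CPM in Advanced and 339 CPM in Early, Trbc1 at 4437 and 4468 CPM and Trbc2 at 5339 and 3789 CPM. There were 0.0659 Trac UMIs per Trbc UMI in Advanced and 0.0411 in Early, between the Dntt cells and the mature T-cell-like cells. No Tcrg-C1 UMI was found in either stage. Gamma delta chains took 0.976% of receptor UMIs in Advanced and 2.56% in Early, and 1 Advanced cell held all 18 of the Advanced gamma delta UMIs. In Advanced the 30 Rag1 cells with both co-receptors held no gamma delta UMI. In Early the sub-cluster had only 4 gamma delta UMIs, all of Trdc (226 CPM, 61.6 to 579), of which the 3 cells with both co-receptors held 2, so too few to place it against other Early cells.

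Over both thymocyte-like sub-clusters the alpha beta sum was at 4068 CPM in Advanced and 4154 CPM in Early (0.979), and CD3 at 1448 and 1766 CPM (0.820). Trac was at 110 CPM in Advanced and 32.3 CPM in Early (3.41, 1.61 to 8.63) beside a make-up of 39 Rag1 cells of 83 in Advanced and 4 of 11 in Early. Trbc1 took 43.0% of Trbc UMIs in Advanced and 54.6% in Early, more than in T-cell-like cells of the same stage. Both Trbc genes reached 2 UMIs in 67 of 83 Advanced (80.7%) and 11 of 11 Early cells. The thymocyte-like cells had a median depth of 10197 UMIs in Advanced and 24222 in Early. The part of depth in the share with both genes was not tested for these cells. The cycling cells of the T side (66 in Advanced and 42 in Early) also mixed the types. They held gamma delta chains at 369 CPM in Advanced and 319 CPM in Early (1.16), and both types met in 26 of 66 Advanced (39.4%) and 15 of 42 Early cells (35.7%). Their median depth, 33575.5 UMIs in Advanced and 32440.5 in Early, was well above that of the T-cell-like cells (11248 and 10397), and its part in these shares was not tested.

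Precursors were also read without clusters, as cells with 2 or more UMIs of Rag1, Rag2 and Dntt together whose T lineage genes outnumbered B lineage genes. There were 156 in Advanced and 56 in Early. Alpha beta chains were present in 110 of the Advanced (70.5%, 62.7 to 77.5) and 23 of the Early ones (41.1%, 28.1 to 55.0). By class, all 74 Advanced and all 11 Early thymocyte-like precursors held them, as did 25 of 26 Advanced and 12 of 12 Early cycling ones. Plasmacytoid dendritic-like cells, which also use Dntt or Rag genes in mice, made up 51 Advanced and 33 Early cells of the gate, and 6 (11.8%) and none of those held alpha beta chains. Without them the share was 99.05% in Advanced and 100% in Early, so the lower Early share went with the share of plasmacytoid cells in the gate. Gamma delta chains were present in 53 Advanced and 17 Early precursors and 2 or more Trac UMIs in 32 and 7.

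**Figure D4:**
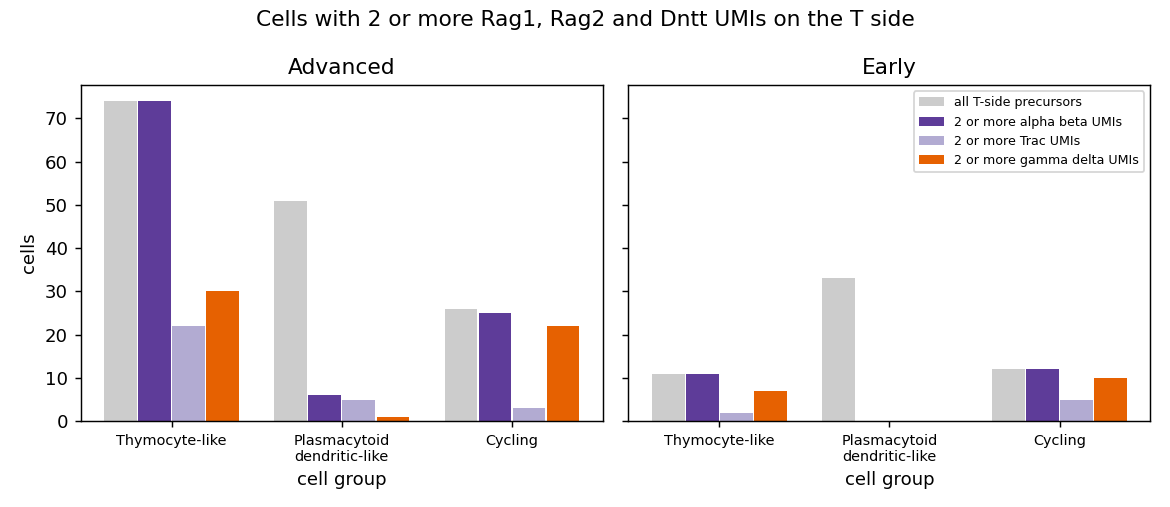
Number of T-side precursors (y) by class (x) in the Advanced (left) and Early (right) libraries. Bars give all precursors of the class and those with 2 or more UMIs of alpha beta chains, of Trac and of gamma delta chains. Thymocyte-like and cycling precursors nearly all held alpha beta chains, whereas fewer held 2 Trac UMIs, and the plasmacytoid dendritic-like cells mostly held none of the chains.

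Outside T cells, the chains gave a background that was several times higher in the Advanced library. In B-cell-like cells (4878 in Advanced and 6385 in Early) the alpha beta chains were at 29.3 CPM in Advanced and 4.02 CPM in Early (7.29, 6.25 to 8.56), and the CD3 chains had 806 UMIs in Advanced (an interval of 18.6 to 21.4 CPM) and 163 in Early (2.98 to 4.08 CPM), a ratio of 5.71 (4.82 to 6.80). Over all cells of a library, the alpha beta chains stood at 602 CPM in Advanced and 158 CPM in Early. Among B-cell-like cells, 2 members had at least 10 CPM in a library, Trbc1 at 10.3 CPM in Advanced and 1.44 CPM in Early and Trbc2 at 14.8 and 1.74 CPM. Both were over 2-fold higher in Advanced, where 0.161% of the 6845 genes measured there were, but both passed the minimum only through Advanced, which fixed that direction, and nothing is read from the count. In the myeloid cells (290 in Advanced and 167 in Early) 5 members reached 10 CPM, again only through Advanced, so their direction was fixed too and is not set against the 1.21% of 7763 genes that were over 2-fold higher (2.33% in either direction). The Early myeloid cells held 13 alpha beta and 2 CD3 UMIs in all, against 271 and 252 in Advanced. Single ratios in B-cell-like cells ran from 2.87 for Cd247 to 13.7 for Cd3g (8.36 to 24.0).

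Few B-cell-like cells held enough chain UMIs to look like a T cell. In Advanced, 8 of 4878 B-cell-like cells had 5 or more UMIs of the members and held 8.36% of that class's member UMIs, and in Early none of 6385 did. In the other classes such cells were few but held most of the signal: 8 of 210 Advanced macrophage or monocyte-like cells held 76.6%, 3 of 80 Advanced dendritic-like cells held 65.4%, and 6 of 126 Advanced plasmacytoid dendritic-like cells held 87.2%. There were none among the 126, 41 and 65 Early cells of those classes. Without them Cd3g in Advanced macrophage or monocyte-like cells was at 3.24 CPM, against 24.5 CPM with them. With these cells left out, the alpha beta level of B-cell-like cells was 1.16% (1.10 to 1.24) of the T-cell-like level in Advanced and 0.141% (0.122 to 0.163) in Early. Macrophage or monocyte-like cells had 1.03% in Advanced and 0.151% in Early, and plasmacytoid dendritic-like cells 0.705% and 0.173%. For alpha beta chains, the Advanced plasmacytoid interval (0.494 to 0.976) lay below that of the B-cell-like cells. For CD3 the Advanced values were 0.958% (0.890 to 1.03) in B-cell-like and 0.761% (0.521 to 1.07) in macrophage or monocyte-like cells. In plasmacytoid dendritic-like cells the value was 0.414% (0.245 to 0.654). As a share of UMIs, the classes of a library therefore did not share 1 value. Median depth in Advanced was 7314 UMIs in B-cell-like, 8998.5 in macrophage or monocyte-like and 17818.5 in plasmacytoid dendritic-like cells. The part of depth in these percentages was not tested.

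**Figure D5:**
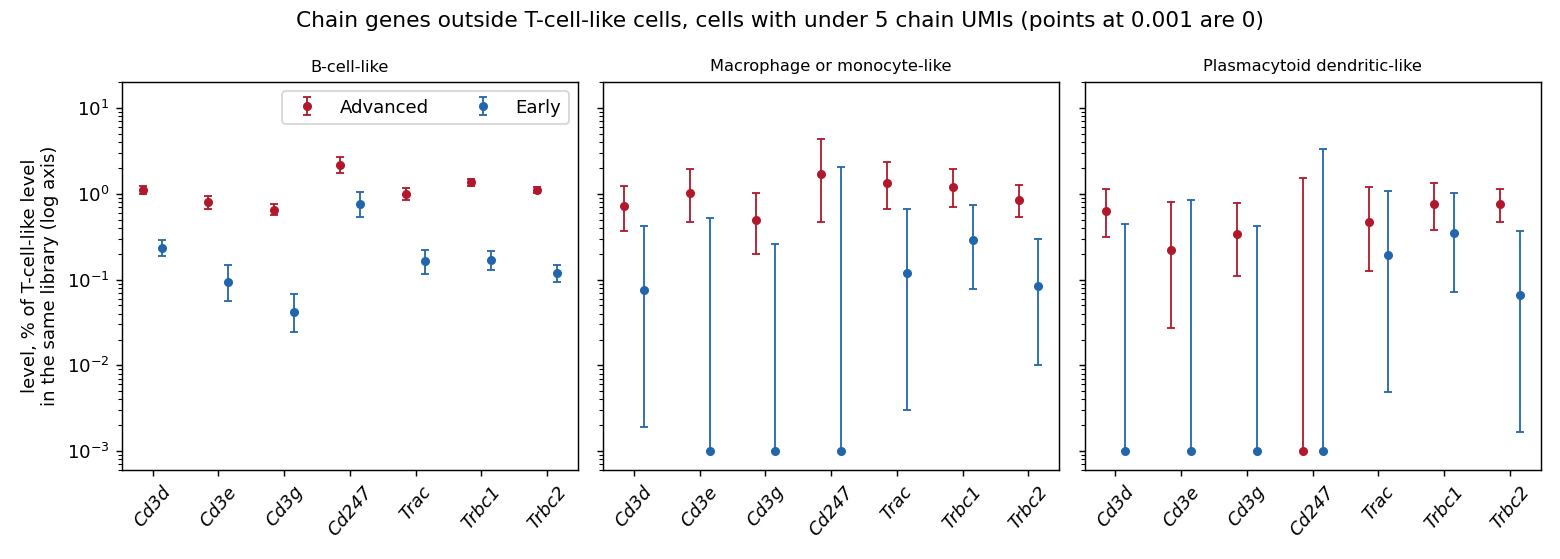
Level of 7 chain genes (x) as a percent of their level in T-cell-like cells of the same library (y, log axis), in B-cell-like, macrophage or monocyte-like and plasmacytoid dendritic-like cells with under 5 chain UMIs. Points are Advanced and Early values with 95% counting intervals, and points at the lowest position stand for 0 UMIs. In B-cell-like cells every Advanced point lies above its Early point.

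The 7 CD3 and alpha beta genes did not all share 1 percentage. In Advanced B-cell-like cells it was 0.653% for Cd3g (0.560 to 0.758), 0.806% for Cd3e, 0.991% for Trac, 1.11% for Trbc2, 1.12% for Cd3d, 1.36% for Trbc1 and 2.18% for Cd247 (1.77 to 2.67). In Early it was 0.0422% for Cd3g, 0.118% for Trbc2, 0.233% for Cd3d and 0.763% for Cd247. Of the 7 genes, Cd247 was highest and Cd3g lowest in both stages. The gamma delta chains had 70 UMIs in Advanced and 13 in Early B-cell-like cells, at 1.74 and 0.279 CPM (6.22, 3.41 to 12.3). At a fixed depth of 1000 UMIs per cell, an alpha beta UMI was found in 3.08% of Advanced and 0.439% of Early B-cell-like cells, against 84.7% of Advanced and 89.7% of Early T-cell-like cells. Without thinning, these shares were 19.6% and 2.90% in B-cell-like cells and 99.8% and 99.4% in T-cell-like cells, at median depths of 7314 and 6492 UMIs for the B-cell-like cells and 11248 and 10397 UMIs for the T-cell-like cells. Of the shallower cells left out, 12 Advanced and 0 Early were B-cell-like, and 0 and 1 T-cell-like. A gamma delta UMI was found in 1.41% of Advanced and 0.204% of Early B-cell-like cells, against 14.5% and 12.7% of T-cell-like cells. At 1000 UMIs per cell the gamma delta shares were 0.226% in Advanced and 0.0313% in Early B-cell-like cells, and 4.74% and 4.24% in T-cell-like cells, so each stage stood above its background.

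The genes that work beside the receptor were counted from fixed lists in T-cell-like cells. Of the co-receptors and co-stimulators, 2 of 7 were above 1 and 5 below. Their median ratio was 0.743, where the median over all genes was 0.863. Cd8b1 was at 436 CPM in Advanced and 194 CPM in Early (2.25) and Cd8a at 165 and 96.5 CPM (1.71), whereas Cd4 was at 35.9 CPM in Advanced and 100.4 CPM in Early (0.358). Cd5, which restrains receptor signalling, was at 83.3 CPM in Advanced and 143 CPM in Early (0.584). The co-receptor values move with the subset numbers given above, in which Naive CD8-like cells were the largest Advanced group and Regulatory-like cells the largest Early one among named sub-clusters. Of 14 proximal signalling genes 5 were above 1 and 9 below, with a median of 0.9496, above the all-gene median. Txk, a Tec family kinase, was at 220 CPM in Advanced and 109 CPM in Early (2.03), while Zap70, the kinase that binds phosphorylated CD3 and zeta tails, was at 61.5 and 103 CPM (0.599), and Lcp2, which encodes the adaptor SLP-76, at 64.0 and 113 CPM (0.569). Of 13 genes that restrain signalling 3 were above 1 and 10 below, with a median of 0.770, below the all-gene median. Of 9 gamma delta lineage genes 3 reached 10 CPM, with ratios below the all-gene median of 0.863: Cd163l1, which passed the minimum only through Early, at 6.80 CPM in Advanced and 31.6 CPM in Early (0.215), Maf at 78.0 and 247 CPM (0.316) and Blk at 17.4 and 38.3 CPM (0.455). Maf was also a leading gene of the T-cell-like cluster with Foxp3 and Ctla4, of 508 Advanced and 103 Early cells. Blk was at 94.7 CPM in Advanced and 95.4 CPM in Early B-cell-like cells. All 3 were on the list that named the Innate-like cells, of which there were 50 in Advanced and 12 in Early. The part of the subset numbers and of B cell RNA in these ratios was not tested. None of Rag1, Rag2, Dntt and Ptcra reached 10 CPM in T-cell-like cells.

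Variable segments were counted thinly by 3′ sequencing. Any Trav segment had a UMI in 468 of the Advanced (36.4%) and 54 of the Early (32.5%) T-cell-like cells, and any Trbv segment in 473 (36.8%) and 62 (37.3%). B-cell-like cells held 12 Trav UMIs in Advanced and 1 in Early, and 7 and 0 Trbv UMIs. By UMIs the leading genes of the segment list, which also held the constant gene Tcrg-C4, were Trgv2 (207 in Advanced), Tcrg-C4 (151), Trav16 (101), Trbv12-2 (89) and Trav16n (87) in Advanced, and Trdv4 (26 UMIs), Trgv2 (25), Trav16n (14), Tcrg-C4 (12) and, tied, Trav4-4-dv10 (10, all in 1 cell) and Trbv13-2 (10, in 9 cells) in Early. In the Innate-like sub-cluster Trdv4 had 69 UMIs in 14 of 50 Advanced and 22 in 4 of 12 Early cells, and Trgv2 61 UMIs in 19 and 13 in 5 cells. Trav16 and Trav16n belong to a duplicated segment family, and their split is uncertain.

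Across 33 profiles, each a cluster of 1 library with at least 20 cells, the genes whose log2(CPM + 10) was most like the summed CD3 chains were Thy1 (Pearson r 0.970), Lat (0.965), Bcl11b (0.956), Skap1 (0.946) and Tox (0.936). The same genes came closest to the alpha beta chains, led by Lat (0.972) and Bcl11b (0.968). For the gamma delta chains they were 5830411N06Rik (0.899), Akr1c13 (0.869), Prrt1 (0.861), Adgrg3 (0.860) and Akr1c12 (0.851). Profiles of a library share its depth and background. Thy1, Lat, Bcl11b and Skap1 were also on the marker list used to name the T-cell-like clusters, so these values are a description.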

How the data were processed

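Droplet libraries of pooled PLN cells, 1 Advanced and 1 Early, were analysed. The authors deposited 1 matrix of raw UMI counts per sample, made against the mouse build mm10. Seurat 4.0.3 and Cell Ranger (3.1 and 3.1.0) are listed in the submitters' notes on processing, but the matrix headers give Cell Ranger 6.0.1. Cells with at least 200 genes and genes in at least 3 cells were kept. Cells were integrated and clustered in Seurat 5.3.0 (R 4.3.3; 2000 variable features, 30 dimensions, resolution 0.5), with 666 receptor and immunoglobulin genes left out of the features, and T-lineage clusters were split again (20 dimensions, resolution 0.8). Classes were rebuilt and named from markers, so they may differ from the study's own. Scrublet, run in scanpy 1.11.5, called 4 Advanced and 5 Early doublets where loading predicts 6.55% and 6.58% of cells. Its automatic threshold had therefore not worked, and no cell was removed. Its scores were used only to rank cells, and leaving out the 536 and 541 highest-scoring cells was an alternative. Counts were summed per class and given as CPM, with class totals also scaled by TMM (edgeR 4.0.16). A gene was compared when it had at least 10 CPM in 1 library, and a gene at 0 was set at 3 counts. Python 3.11.15 with numpy 2.4.6, scipy 1.17.1, pandas 2.3.3 and matplotlib 3.10.9 made the sums, intervals and plots, which were tested on simulated data. All members were named, along with up to 4 genes of each list farthest from a ratio of 1, the 5 segments with the most UMIs and the 5 most alike genes. Trgv2 lies outside the symbol prefixes listed for segments and was added. The members and lists were chosen with earlier results of these data known. Alternatives were other totals, minimums, thinning depths, doublets left out, another resolution and marker classes.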

Additional observations from a re-analysis of the deposited data

Results flagged for a closer look

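Some chains were lower in Advanced than in Early T-cell-like cells and higher in Advanced than in Early B-cell-like cells, under all 3 ways of setting the totals. With 1 library per stage the difference between the classes was not tested. Cd3g had an Advanced to Early ratio of 0.762 in T-cell-like cells and 13.7 in B-cell-like cells. Trac had 0.747 and 4.98 in the same classes, Trbc1 had 0.766 and 7.17, and Tcrg-C1 had 0.370 and 5.31. The Tcrg-C1 ratio in B-cell-like cells rests on 23 Advanced and 5 Early UMIs. The split of Tcrg-C1 from Tcrg-C2 is uncertain in both classes. The summed alpha beta chains had 0.804 in T-cell-like and 7.29 in B-cell-like cells, and the summed gamma delta chains 0.685 and 6.22. Without the cell of each library with the most gamma delta UMIs, that T-cell-like ratio was 0.920 (0.768 to 1.11), which takes in 1. T-cell-like cells were 15.7% of Advanced and 2.02% of Early cells, and the part of that difference in these ratios was not tested.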

How the results depend on the processing

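Of the alternative values, 64 kept their call or stayed within counting error, 29 moved and 2 changed direction, and the cause was not tested. In T-cell-like cells the alpha beta ratio of 0.804 became 0.914 without immunoglobulin, ribosomal and mitochondrial genes in the totals, 0.949 under TMM, 0.929 with classes set by markers and 0.829 without the B-gene sub-cluster. The gamma delta ratio of 0.685 became 0.809 under TMM, 0.843 as a mean of cell CPM and 0.920 without the top cell of each library. The CD3 ratio of 0.876 became 0.996 without those genes in the totals and 0.915 without the B-gene sub-cluster, and passed above 1 under TMM (1.03) and with marker classes (1.07). The share with gamma delta chains only, 0.155% in Advanced, was 1.17% at 2000 UMIs per cell and 4.27% with Trac alone, and in Early, 0.602%, it was 0% with marker classes and 6.02% with Trac alone. Both Trbc genes were held by 63.9% of Advanced cells at 1 UMI, 49.5% at 3 UMIs and 21.3% after thinning, and by 50.3% at 3 UMIs and 27.9% after thinning in Early. The Trbc1 share was 30.1% in Advanced and 29.1% in Early with cells weighted equally, and 36.7% in Advanced with marker classes. Precursors with alpha beta chains were 77.7% in Advanced at 4 UMIs, 99.05% without plasmacytoid dendritic-like cells and 100% within the thymocyte-like cluster, and 100% in Early under both of the last. Genes over 2-fold apart, 56 higher and 259 lower (315), numbered 2715 with no minimum, 66 at 50 CPM and 480 without those genes in the totals (189 higher and 291 lower), against 133 higher and 156 lower under TMM. Alternatives on sub-clusters, Trac alone and precursor classes were chosen after seeing the data. No paired analysis was possible because each stage had 1 library. Depth limits the gamma delta values, the Early subsets of under 20 cells and the split of Tcrg-C1 from Tcrg-C2.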
